A study of Mus musculus with 60 samples.

Results

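The Hoxd cluster is a row of 9 homeobox genes on mouse chromosome 2, Hoxd13, Hoxd12, Hoxd11, Hoxd10, Hoxd9, Hoxd8, Hoxd4, Hoxd3 and Hoxd1, all transcribed from the same strand. In mm10 it runs over 96.8 kb, chr2:74668310-74765142, and these 9 genes were described out of 21911 protein-coding genes of the GENCODE vM21 annotation. The genes were chosen by name from results of these data that were already known, their H3K27me3 cover in H3R2C cells among them. The H3K27me3 differences between genotypes at these genes are therefore given as a description and carry no test.

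The samples were mesenchymal progenitor cells of the mouse line C3H 10T1/2, in which a lentiviral transgene under the EF1 promoter expressed tagged histone H3.1. The transgene was either wild type (H3WT) or had cysteine in place of 1 arginine of the H3 tail (H3R2C, H3R8C, H3R17C or H3R26C). Every group kept its endogenous H3 genes and was selected with puromycin, and no animals, treatments or time courses were involved. CUT&RUN, in which an antibody directs a nuclease to cut out the chromatin it binds, was run with IgG, anti-HA (for the tagged transgene histone), anti-H3K4me3 and anti-H3K27me3 antibodies in 60 labelled samples, and the H3K27me3 and HA peak lists are used here.

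In each group of 3 labelled replicates, 2 of the peak lists were identical and were counted as 1 library. Each pair of values below gives the list shared by replicates 1 and 2 first and replicate 3 second. For H3R17C the H3K27me3 lists of replicates 2 and 3 were the identical ones. The H3R17C replicate 1 list was left out, since its deposited name is that of another histone mark, so H3R17C has 1 library and no replicate check. This left 9 H3K27me3 libraries with 20077 to 24598 peaks each, and 10 HA libraries with 15344 to 52083 peaks. The lists hold no read totals. The study names a read total for every labelled replicate, replicates with identical lists included, and these totals were not used here because the lists do not show which of the replicates a shared list came from. A region without a peak is one that the authors' peak caller did not call. A peak present in part of the cells cannot be told apart from a weaker peak in all of them. In the 9 H3K27me3 libraries, the start sites of 7 mesenchymal genes (among them Col1a1, Vim and Prrx1) and of 4 housekeeping genes had no peak. Of the genes of other lineages reported here, 6 had a peak over the start in at least 1 library, and 3 of them (Sox1, Neurog1 and Myod1) had one in every library.

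H3K27me3 is the trimethyl mark that Polycomb Repressive Complex 2 places on lysine of the H3 tail, and it spreads in broad domains over developmental genes that are kept silent. Hox clusters are textbook Polycomb targets. Their genes encode transcription factors that give cells a position along the body axis, and genes at the Hoxd1 end are used at the front of the embryo and genes at the Hoxd13 end at its rear. The last genes of the row, Hoxd10 to Hoxd13, also pattern the limb, and Hoxd13 the digits.

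In H3WT cells, H3K27me3 peaks covered most of the cluster, and in H3R2C cells they covered less of it and left longer gaps. The number of peaks was 6 and 6 in H3WT and 7 and 13 in H3R2C. The libraries of the other mutants had 4 to 9. The share of the 96.8 kb inside peaks was 89.9% and 87.0% in the H3WT libraries and 56.7% and 49.4% in the H3R2C libraries. It was 84.0% and 90.6% in H3R8C, 86.8% in the H3R17C library, and 94.4% and 93.2% in H3R26C. The H3R2C mean, 53.0% ± 5.18 (SD, n = 2), was lower than the H3WT mean, 88.5% ± 2.09 (SD, n = 2), by 35.4 percentage points, which is larger than the spread within either pair. H3R8C and H3WT overlapped, and the H3R17C library differed from the H3WT mean by 1.63 points less cover. Both H3R26C libraries lay above both H3WT libraries, with a mean 5.34 points higher.

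**Figure D1:**
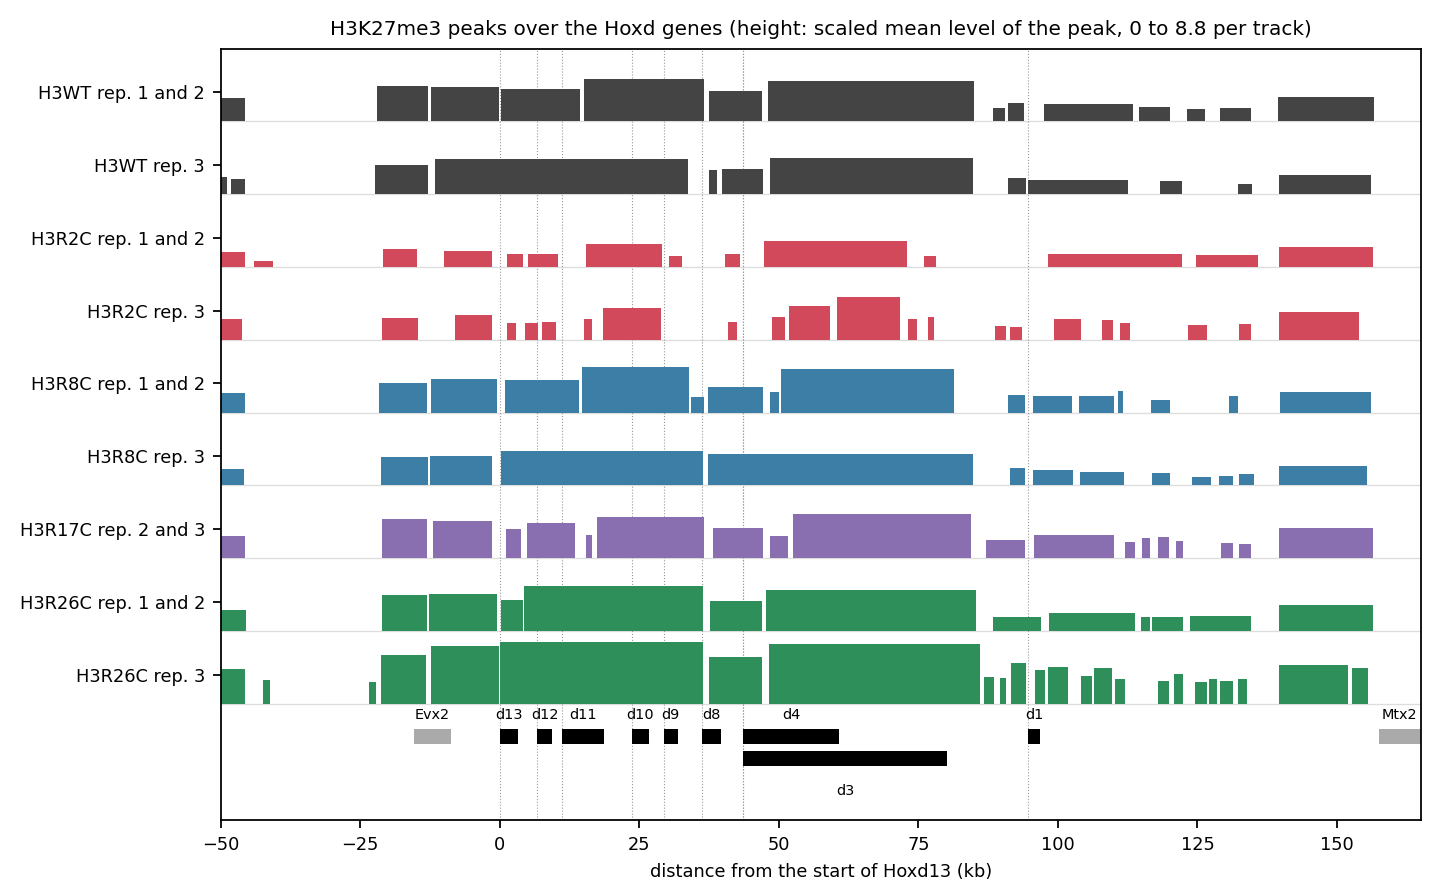
H3K27me3 peaks in the 9 libraries plotted by distance from the start of Hoxd13 (kb), with gene bodies at the bottom (d13 to d1: Hoxd13 to Hoxd1, grey: neighbours) and dotted lines at Hoxd start sites. Bar height is the mean signal per bp of the peak divided by the library's median gene. The H3R2C tracks show gaps over most Hoxd starts that are narrower or absent in the other tracks. H3WT replicate 3 has a gap of 3.75 kb over the Hoxd8 start, and H3WT replicates 1 and 2 have one over the Hoxd1 start. At Hoxd13 the H3R17C gap is nearly as wide, and the block next to Mtx2 is present in all 9.

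The marked sequence shows where the cover was missing. RefSeq (GRCm38.p6) promoters, windows of 300 bases that end 50 bases after a start, are printed for 3 starts that lay wholly inside a peak in both H3WT libraries and in no peak in either H3R2C library (Hoxd11, Hoxd9 and Hoxd3), and for 3 starts that lay wholly inside a peak in all 9 libraries (Hoxd12, Hoxd10 and Hoxd4). Every CG dinucleotide is in capitals, since CG-rich starts are where Polycomb complexes are typically found. All are on the plus strand.
Hoxd11, chr2:74682073-74682372: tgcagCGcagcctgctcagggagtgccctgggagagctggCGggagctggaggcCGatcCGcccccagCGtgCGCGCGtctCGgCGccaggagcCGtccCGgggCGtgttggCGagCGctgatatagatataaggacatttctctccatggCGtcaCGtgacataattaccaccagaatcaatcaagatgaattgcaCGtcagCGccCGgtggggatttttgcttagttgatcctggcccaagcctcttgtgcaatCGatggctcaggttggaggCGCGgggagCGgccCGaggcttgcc
Hoxd9, chr2:74697513-74697812: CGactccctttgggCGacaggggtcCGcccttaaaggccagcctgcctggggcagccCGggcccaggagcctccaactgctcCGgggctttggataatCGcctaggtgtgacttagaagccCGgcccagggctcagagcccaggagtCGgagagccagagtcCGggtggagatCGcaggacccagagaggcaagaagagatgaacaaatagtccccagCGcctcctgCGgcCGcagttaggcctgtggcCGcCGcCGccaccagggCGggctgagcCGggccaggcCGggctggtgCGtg
Hoxd3, chr2:74711743-74712042: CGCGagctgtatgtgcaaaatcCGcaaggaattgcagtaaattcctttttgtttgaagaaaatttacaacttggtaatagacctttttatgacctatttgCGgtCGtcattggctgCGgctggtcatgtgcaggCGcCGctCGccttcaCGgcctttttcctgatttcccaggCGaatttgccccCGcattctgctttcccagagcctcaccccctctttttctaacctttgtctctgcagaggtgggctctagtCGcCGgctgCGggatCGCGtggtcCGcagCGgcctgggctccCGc
Hoxd12, chr2:74674763-74675062: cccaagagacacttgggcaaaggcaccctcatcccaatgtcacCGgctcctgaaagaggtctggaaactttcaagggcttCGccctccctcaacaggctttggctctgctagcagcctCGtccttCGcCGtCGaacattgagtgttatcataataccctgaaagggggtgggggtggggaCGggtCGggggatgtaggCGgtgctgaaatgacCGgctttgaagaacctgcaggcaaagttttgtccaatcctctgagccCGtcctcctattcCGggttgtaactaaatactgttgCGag
Hoxd10, chr2:74691641-74691940: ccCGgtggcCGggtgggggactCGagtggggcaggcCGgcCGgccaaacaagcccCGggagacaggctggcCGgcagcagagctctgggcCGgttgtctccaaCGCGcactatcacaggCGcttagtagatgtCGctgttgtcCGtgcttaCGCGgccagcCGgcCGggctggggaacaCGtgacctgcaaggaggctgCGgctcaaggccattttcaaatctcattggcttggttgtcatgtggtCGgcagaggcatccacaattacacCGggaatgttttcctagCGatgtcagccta
Hoxd4, chr2:74721728-74722027: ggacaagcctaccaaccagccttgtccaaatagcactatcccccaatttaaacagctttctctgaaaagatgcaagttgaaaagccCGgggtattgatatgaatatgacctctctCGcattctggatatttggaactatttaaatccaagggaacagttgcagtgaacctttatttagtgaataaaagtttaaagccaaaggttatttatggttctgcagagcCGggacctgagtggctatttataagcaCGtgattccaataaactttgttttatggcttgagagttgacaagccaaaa
The starts without cover in H3R2C held 25 (Hoxd11), 20 (Hoxd9) and 20 (Hoxd3) CG dinucleotides in 300 bases, and the starts with cover in every library held 13 (Hoxd12), 22 (Hoxd10) and 4 (Hoxd4), so the 2 sets overlapped. The median over 32851 RefSeq promoters was 7, and 26.5% of them held at least the 20 of Hoxd9 and Hoxd3. The table of promoters has another, upstream start for Hoxd11 with 4 CG dinucleotides, and it too was wholly covered in both H3WT libraries and uncovered in both H3R2C libraries. The promoters of Hoxd13 (37 CG, at least as many in 5.58% of promoters), Hoxd1 (29 CG, in 12.9%) and Hoxd8 (6 CG, in 56.4%) are not printed, because they were not wholly covered in both H3WT libraries. That of Hoxd13 was covered to 75.3% and 100% in H3WT and to 0% in both H3R2C libraries. It was also covered to 0% in both H3R8C libraries and in H3R17C, and to 0% and 42% in H3R26C. Lower cover of the Hoxd13 promoter was thus shared by all the mutants. The printed Hoxd11 start was also uncovered in the H3R17C library.

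A start site was scored as marked when a peak reached within 1 kb of it. By this measure 9 and 8 of the 9 Hoxd starts were marked in the H3WT libraries and 6 and 3 in the H3R2C libraries. All 9 were marked in each H3R8C and each H3R26C library, and 8 in the H3R17C library, where the missing start was that of Hoxd13. Of the 8 Hoxd starts marked in both H3WT libraries, 2 (Hoxd13 and Hoxd1) were unmarked in both H3R2C libraries, against 26.1% of the 1941 genes with a start marked in both H3WT libraries. None of the 8 was missing from both H3R8C libraries (4.22% of all such genes) or both H3R26C libraries (9.38%). The count for H3R2C is thus near the share over all genes at this window. With the start base itself, rather than the 1 kb around it, 7 and 7 Hoxd starts lay inside a peak in H3WT and 2 and 2 in H3R2C. In both H3R2C libraries these were Hoxd12 and Hoxd10. No share over all genes is given for this measure, so these counts have no background to be read against. These are GENCODE gene starts, and those of Hoxd3 and Hoxd4 nearly coincide, so 1 free stretch counts for both. The RefSeq start of Hoxd4 printed above lay inside a peak in H3R2C. In the other genotypes the number of GENCODE starts inside a peak was 7 or 8.

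For whole genes, a gene was called lower when both mutant libraries covered less of it than both H3WT libraries and the means differed by at least 10 percentage points, and higher in the mirror case. In H3R2C, 6 of the 9 Hoxd genes were lower by this rule (Hoxd13, Hoxd11, Hoxd9, Hoxd8, Hoxd3 and Hoxd4) and none was higher. Over the 4729 genes with a peak in at least 1 of these libraries, 16.2% were lower and 16.7% higher. Among the 914 genes covered by at least 50% in both H3WT libraries, 35.3% were lower in H3R2C, and 7 Hoxd genes belonged to this set, 5 of them lower. The median difference was -40.9 points for the 9 Hoxd genes, 0.224 points for all genes with a peak and -7.34 points for the 914 highly covered genes. For the 7 Hoxd genes in the highly covered set it was -26.3 points. The genes overlap and share peaks, so they are not independent of each other. In H3R8C, 1 Hoxd gene (Hoxd8) was higher and none lower, against 8.98% and 7.25% of 4374 genes. In H3R26C, no Hoxd gene was higher or lower, against 6.35% and 15.9% of 4565 genes. Among the 914 highly covered genes, 1.75% were higher and 30.4% lower in H3R26C, with a median difference of -8.07 points. For the 7 Hoxd genes in that set the H3R26C median was 0.137 points.

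**Figure D2:**
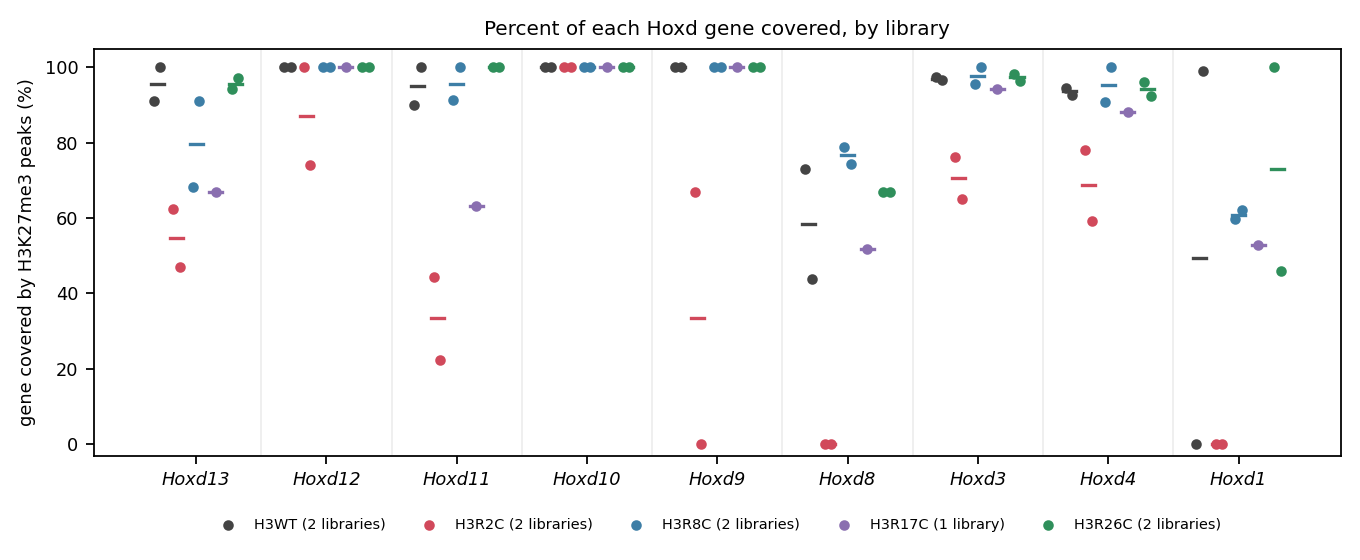
Percent of each Hoxd gene covered by H3K27me3 peaks, genes in chromosomal order from Hoxd13 to Hoxd1. Each point is 1 library and each short bar the mean of a genotype. The H3R2C points lie below the H3WT points at Hoxd13, Hoxd11, Hoxd9, Hoxd8, Hoxd3 and Hoxd4, all points lie at 100% at Hoxd10, and the H3WT points lie far apart at Hoxd8 and Hoxd1.

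The level of a gene is the summed signal of its peaks, spread evenly over each peak, per bp of the gene. It was divided by the library's median over 1890 genes with a peak in every library, so that 1 stands for the median marked gene. Genes inside 1 peak have the same level by construction, as Hoxd12 to Hoxd9 had in H3R26C. The mean scaled level over the 9 genes was 4.41 and 4.21 in H3WT, 1.59 and 1.58 in H3R2C, 4.53 and 4.18 in H3R8C, 4.10 in H3R17C, and 5.08 and 7.34 in H3R26C. The H3R2C libraries were the lowest and close to each other, at 0.368 of the H3WT mean. The H3R26C libraries were above H3WT but spread widely, with an SD of 1.60 around 6.21. On the deposited, unscaled signal, the mean over the cluster was 9.23 and 8.68 per bp in H3WT, 4.99 and 2.61 in H3R2C, and 11.8 and 6.62 in H3R26C, so the higher level in H3R26C replicate 3 was seen with scaling and turned lower without it. For 6 of the 9 genes the scaled level lay below both H3WT libraries in both H3R2C libraries and above them in both H3R26C libraries, against 7.44% of 5109 genes with a peak in any of these libraries. Those 5109 genes include genes with little cover, and no share is given for the highly covered genes alone. H3R26C replicate 3 had the lowest median gene of the 9, at 0.871 per bp, against 1.27 to 2.90 in the others.

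Hoxd13 encodes the factor of the most posterior body and of the digits. Its body was covered to 91.2% and 100% in H3WT and to 62.3% and 47.1% in H3R2C. It was covered to 68.4% and 91.2% in H3R8C, 66.8% in H3R17C, and 94.2% and 97.2% in H3R26C. The H3R2C libraries lay below both H3WT libraries, and the H3R17C library and 1 H3R8C library also did. The scaled level was 4.17 and 5.02 in H3WT and 1.14 and 1.13 in H3R2C, 0.247 of the H3WT mean. In both H3R2C libraries the peak-free stretch over the gene start ran from -1.41 kb to 1.24 and 1.39 kb, counted from that start. In the H3R17C library it was nearly as long, from -1.41 to 1.09 kb.

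Hoxd12 and Hoxd11 are the next genes of the limb-patterning group. Hoxd12 was covered to 100% in 8 of the 9 libraries and to 74.0% in H3R2C replicate 3, so the cover of the groups overlapped. Its scaled level nevertheless did not overlap, at 4.57 and 5.02 in H3WT and 1.91 and 1.87 in H3R2C. Hoxd11 was covered to 89.9% and 100% in H3WT, 44.5% and 22.3% in H3R2C, and 63.1% in H3R17C, and to between 91.3% and 100% in the H3R8C and H3R26C libraries. In H3R2C the stretch without a peak at the start of Hoxd11 was 4.90 and 5.05 kb long. In H3R17C a shorter stretch of 1.90 kb was free at the Hoxd11 start printed above.

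Hoxd10, which also acts in limb and spinal cord, was the one member covered to 100% in all 9 libraries. It lies in a run of 10.4 kb, chr2:74686851-74697250, that was inside a peak in every library. Its scaled level was 6.08 and 5.02 in H3WT, 3.20 and 4.60 in H3R2C, 6.51 and 4.86 in H3R8C, 5.90 in H3R17C, and 6.42 and 8.82 in H3R26C. H3R2C was thus the lowest also here, at 0.703 of the H3WT mean, with a gap between the groups smaller than the spread within either of them.

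Hoxd9 and Hoxd8 lie in the middle of the row. Hoxd9 was covered to 100% in every library except those of H3R2C, where it was covered to 66.8% and 0%. The 2 H3R2C libraries disagreed here, because in replicates 1 and 2 a peak of its own lay over the 3′ part of the gene. Hoxd8 was covered to 72.9% and 43.7% in H3WT and to 0% in both H3R2C libraries. In the others its cover was 78.9% and 74.4% (H3R8C), 51.8% (H3R17C), and 66.9% and 66.9% (H3R26C). In H3WT replicate 3 the Hoxd8 start was itself free, inside a stretch of 3.75 kb, while in H3R2C the free stretch over it was 7.80 and 11.9 kb long. The higher cover of Hoxd8 in H3R8C is measured against these 2 unequal H3WT values.

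Hoxd4 and Hoxd3, factors of the hindbrain and upper neck region, overlap in the annotation. Their longest transcripts begin 2 bases apart, so 1 stretch of chromatin decides both start sites. In H3R2C that stretch had no peak over 4.30 and 6.20 kb, whereas both start bases lay inside a peak in every other library. Hoxd3 was covered to 97.4% and 96.6% in H3WT and 76.1% and 65.2% in H3R2C, and to between 94.4% and 100% in the other libraries. Hoxd4 was covered to 94.5% and 92.7% in H3WT, 78.1% and 59.3% in H3R2C, and 88.1% to 100% in the others. This difference, -24.9 points, was the smallest among the 6 genes called lower. The start of the Hoxd4 transcript in RefSeq, printed above, lies inside the Hoxd3 span and stayed inside a peak in all 9 libraries. The longest run covered in every library, 11.3 kb at chr2:74728801-74740100, lies in the same span.

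The microRNA gene Mir10b lies within the Hoxd4 span, and its relative Mir10a lies in the Hoxb cluster on chromosome 11. Their mature 5p products share the seed (bases 2 to 8, in capitals), the part of a microRNA that pairs with its targets. Both are shown because their genomic positions were inside a peak in all 9 libraries, H3R2C included.
mmu-miR-10b-5p, chr2:74726074-74726096: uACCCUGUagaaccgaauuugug
mmu-miR-10a-5p, chr11:96317186-96317208: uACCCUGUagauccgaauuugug

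Hoxd1, the most anterior gene of the row, was the least evenly marked in H3WT. Its body was covered to 0% in the list of replicates 1 and 2 and to 99.0% in replicate 3, with scaled levels of 0 and 2.03. It was covered to 0% in both H3R2C libraries, 59.7% and 62.0% in H3R8C, 52.8% in H3R17C, and 100% and 45.9% in H3R26C. No gene-body difference could be called for Hoxd1, since 1 H3WT library had the same cover as H3R2C. A peak reached within 1 kb of its start in both H3WT libraries and in neither H3R2C library. The stretch before it holds Haglr, a long non-coding RNA gene of the opposite strand, which is named for its place in the longest gap and was chosen after its values were seen. Haglr was covered to 68.2% and 54.8% in H3WT, 0% and 28.3% in H3R2C, 29.2% and 51.3% in H3R8C, 79.3% in H3R17C, and 78.6% and 80.3% in H3R26C. One H3R8C library was as low as H3R2C there, so the low cover of Haglr was not particular to H3R2C.

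**Figure D3:**
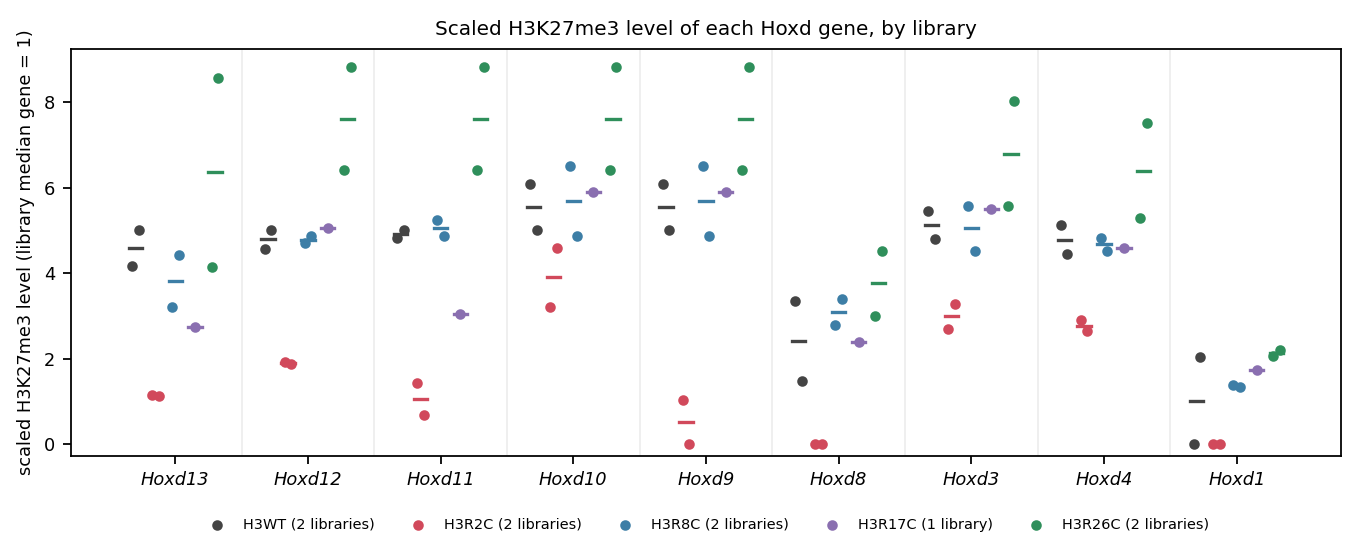
Scaled H3K27me3 level of each Hoxd gene (summed peak signal per bp divided by the library's median marked gene), 1 point per library with a bar at the genotype mean. The H3R2C points are the lowest at Hoxd13 to Hoxd4, and both H3R26C points lie above those of H3WT at every gene except Hoxd13 and Hoxd8.

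Base by base, 22.1 kb of the cluster lay inside a peak in both H3WT libraries and in neither H3R2C library, in 13 separate segments of which 7 were at least 1 kb long. No base lay in both H3R2C libraries and neither H3WT library, but H3WT peaks already covered 89.9% and 87.0% of the cluster, which left little room for a gain. No such sums are given for other regions. The longest segment, 6.60 kb at chr2:74746551-74753150, holds the 3′ end of Hoxd3 and no Hoxd start. The next 2, 3.95 kb at chr2:74711401-74715350 and 3.90 kb at chr2:74678801-74682700, hold the starts of Hoxd3 with Hoxd4 and of Hoxd11. A segment of 1.10 kb at chr2:74697451-74698550 holds the Hoxd9 start. For H3R8C and H3R26C no base covered in both H3WT libraries was free in both mutant libraries, and 0.150 and 0.550 kb were covered only in the mutant. For the single H3R17C library the missing segments summed to 5.80 kb in 9 pieces, the longest of them 1.15 kb. In all, 40.2 kb of the cluster (41.5%) was inside a peak in each of the 9 libraries.

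Narrow gaps recurred at the same places in most libraries. A gap lay over the first bases of Hoxd13 in 8 of the 9 libraries, all but H3WT replicate 3, and reached 0.0910 to 1.09 kb into the gene outside H3R2C. Another lay within Hoxd8, for example 0.900 kb in H3WT replicates 1 and 2 and 1.10 kb in both H3R26C libraries. The number of peaks in the cluster was 6 and 6 in H3WT, 7 and 13 in H3R2C, 8 and 4 in H3R8C, 9 in H3R17C, and 5 and 7 in H3R26C. With gaps cut at the ends of the cluster, the longest gap was 3.30 and 6.25 kb in H3WT and 18.6 and 11.9 kb in H3R2C. Uncut, the gap at the Hoxd1 end ran from 78.2 to 98.3 kb after the Hoxd13 start in H3R2C replicates 1 and 2. In H3WT replicates 1 and 2 it ran from 93.9 to 97.5 kb. In the other 5 libraries the longest gap was 1.55 to 9.75 kb, the longest of these in H3R8C.

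The highest coverage within any peak of the cluster was 32 and 35 in H3WT, 35 and 19 in H3R2C, 36 and 37 in H3R8C, 27 in H3R17C, and 46 and 24 in H3R26C, on the unscaled signal. Divided by the library's median gene, it was 16.5 and 16.6 in H3WT, 12.1 and 15.0 in H3R2C, 19.6 and 15.2 in H3R8C, 18.9 in H3R17C, and 20.1 and 27.6 in H3R26C. On this scale the H3R2C libraries were the lowest, while unscaled 1 of them equalled H3WT. The longest single peak was 37.0 and 45.4 kb in H3WT and 25.5 and 11.3 kb in H3R2C, with summed signals of 411350 and 480000 against 274400 and 86600.

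The outer limits, as measured here, were alike in all genotypes, though the cover between them was not. On the Hoxd13 side, a peak-free stretch of 17.7 to 24.9 kb ended 21.0 to 23.5 kb before Hoxd13 in every library. In H3WT this edge lay 22.0 and 22.3 kb before Hoxd13, and in H3R2C 21.0 and 21.2 kb. On the Hoxd1 side the limit was the last peak before Mtx2, whatever the gaps before that peak. It ended 0.952 to 3.60 kb before the start of Mtx2, a gene of mitochondrial import that is active in most cells. In H3R2C replicates 1 and 2 no peak lay from 78.2 to 98.3 kb after the Hoxd13 start, where both H3WT libraries had peaks. A block of 17.1 kb next to Mtx2, chr2:74807801-74824850, was covered to 100% and 97.1% in H3WT and to 99.4% and 84.2% in H3R2C. Its scaled level was 3.47 and 2.72 in H3WT and 2.81 and 3.35 in H3R2C, which overlapped.

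Over the whole 100 kb on the Hoxd1 side, peaks covered 47.3 and 38.5 kb in H3WT and 52.1 and 28.6 kb in H3R2C, and the H3R2C libraries lay on both sides of H3WT. Over the 100 kb on the Hoxd13 side they covered 47.1 and 48.6 kb in H3WT and 44.8 and 32.0 kb in H3R2C, the latter both lower. Of the neighbouring genes, Evx2, a homeobox gene next to Hoxd13 and outside the 9, was covered to 91.6% and 82.5% in H3WT and 27.7% and 10.8% in H3R2C. In the other libraries Evx2 was covered to between 83.2% and 94.7%. Gm28230, a read-through gene inside the Hoxd3 span, was covered to 79.2% and 69.5% in H3R2C and to 100% elsewhere. The bodies of Lnpk and Mtx2 had no peak in any library, and a peak reached within 1 kb of the Mtx2 start in 1 H3WT library alone.

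The other Hox clusters were read in the same way. In H3R2C, 8 of the 30 other Hox genes were lower and none higher. In the Hoxc cluster all 9 genes were covered by at least 50% in both H3WT libraries and 6 were lower, with a median difference of -41.3 points. In the Hoxb cluster all 10 were so covered and none was lower, and the largest difference was -13.3 points. In the Hoxa cluster only 2 of 11 genes (Hoxa11 and Hoxa13) were so covered in H3WT, and both were lower. Hoxc11 and Hoxc12 had the lowest differences, from 100% in both H3WT libraries to 0% in both H3R2C libraries. At the other end, Hoxb9 and Hoxc4 were covered to 100% in all 4 libraries and were the last by name of 15 other Hox genes with a difference of 0, of which 8 were covered by at least 50% in H3WT and 7 were Hoxa genes with no cover in either genotype. Lower cover in H3R2C was therefore not limited to Hoxd, and no test was made of whether Hoxd and Hoxc differed from Hoxb.

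In H3R26C, 1 of the 30 other Hox genes was lower, Hoxa11, covered to 69.1% and 85.2% in H3WT and 16.5% and 39.4% in H3R26C. Hoxa13 was the next lowest at -7.84 points, with 99.1% and 100% in H3WT and 100% and 83.4% in H3R26C. Hoxa10 had the highest difference, 18.9 points, from 26.4% and 90.2% in H3WT and 100% and 54.4% in H3R26C, and its groups overlapped. The next was Hoxc9, at 100% in all 4 libraries. It was the last by name of the other Hox genes with a difference of 0, which were 7 Hoxa, 10 Hoxb and 7 Hoxc genes.

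**Figure D4:**
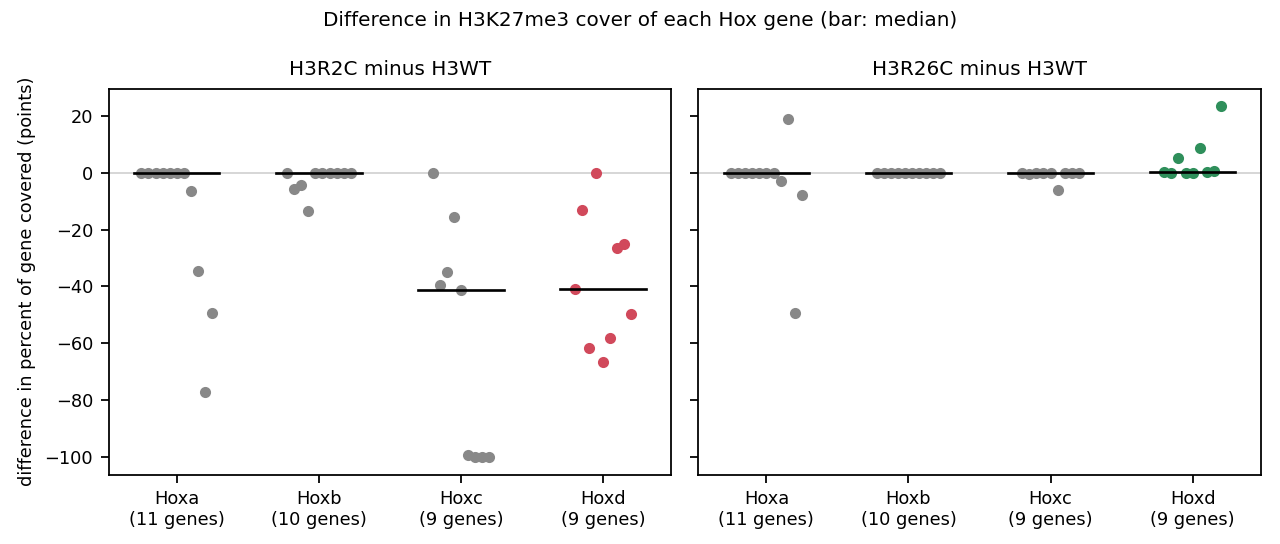
Difference in the percent of each Hox gene covered by H3K27me3, H3R2C minus H3WT (left) and H3R26C minus H3WT (right), with genes grouped by cluster and a bar at each cluster's median. Each point is 1 gene and the difference of 2 genotype means. In H3R2C the Hoxc and Hoxd genes spread down to -100 and -66.6 points while the Hoxb genes stay near 0, and in H3R26C most genes lie at 0.

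The genes whose level moved most like that of the Hoxd genes were found over the 9 libraries, as a description. The measure was Pearson's correlation of log2(scaled level + 0.25) with its mean over the 9 Hoxd genes, and the pseudocount was needed because Hoxd9, Hoxd8 and Hoxd1 had levels of 0. Of 1882 genes outside the region with a peak in every library, the highest were Cartpt (r = 0.994), which encodes a neuropeptide, and Lhx1 (0.989), En2 (0.988), Sox14 (0.985) and Onecut1 (0.985), which encode developmental transcription factors. En2 had scaled levels of 4.51 and 4.47 in H3WT, 0.521 and 0.169 in H3R2C, and 5.38 and 8.42 in H3R26C. Lhx1 had 6.66 and 6.91 in H3WT, 2.66 and 2.45 in H3R2C, and 7.36 and 11.5 in H3R26C. The points share the libraries and their scaling, and the libraries fall into groups by genotype.

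For the tagged histone itself, no HA peak lay over any Hoxd gene or anywhere in the cluster in any of the 10 HA libraries, and none lay in the 100 kb on either side. Over all 21911 genes, 69.0% had an HA peak over the gene or within 1 kb of it in at least 1 of these libraries, and in a single library 30.1% to 42.9% had one. The nearest HA peak was 131 kb from the cluster, in H3R2C replicates 1 and 2, and the farthest of the nearest peaks was 835 kb away, in H3R8C replicates 1 and 2. Of the other Hox genes, 17 of 30 had an HA peak in at least 1 library. Of 856 genes with H3K27me3 over the start in all 9 libraries, 77.8% did, so H3K27me3-marked genes as a class were not free of HA peaks. The HA lists differed in depth of calling, with lowest summed signals from 1350 to 43200, and a signal under the caller's threshold is not recorded. The absence of HA peaks was shared by H3WT and all 4 mutants, and no difference between genotypes could be measured there.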

How the data were processed

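CUT&RUN libraries were sequenced by the authors as 75 bp single-end reads and aligned to mm10 with Rsubread. Peaks were called with SEACR 1.3 (stringent mode, normalised, threshold 0.01). The deposited lists give each peak's interval, its total signal (coverage summed over its bases) and its maximum signal, as whole numbers that were not scaled between libraries. The paper counts the replicates in which a peak was found, which implies calling per replicate, though identical lists were deposited within each group. From these lists, in Python 3 with numpy, the start peak within 1 kb, the percent of each GENCODE vM21 gene covered, gaps, edges and levels per bp were computed, and the coverage code was tested on simulated peaks.

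The 9 genes, the gene lists and the rules were chosen with earlier results of these data known. Beside the Hoxd genes, the genes named are the protein-coding genes within 100 kb, the 2 other Hox genes with the lowest and the 2 with the highest difference in H3R2C and in H3R26C (ties by name), and the 5 genes most like the Hoxd genes. A model fit of HA levels was planned, but no Hoxd gene had an HA peak, so it was not run. Lists of identical values were counted once. The study describes its CUT&RUN replicates as independent biological replicates, but 2 of 3 lists per group were identical. Alternatives covered peak strength, joining, windows, scaling and libraries left out. Of the marker genes of other lineages, 1 is not reported here.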

Additional observations from a re-analysis of the deposited data

Results flagged for a closer look

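The cover of the Hoxd cluster moved in opposite directions in 2 mutants: both H3R2C libraries lay below both H3WT libraries (difference -35.4 percentage points) and both H3R26C libraries lay above them (5.34 points). The scaled levels of 6 of the 9 Hoxd genes split in the same way, against 7.44% of 5109 genes with a peak, genes with little cover included. The differences from H3WT in H3R2C and H3R26C were -2.91 and 2.82 for Hoxd12, -3.87 and 2.69 for Hoxd11, -1.65 and 2.07 for Hoxd10, -5.03 and 2.07 for Hoxd9, -2.14 and 1.67 for Hoxd3, and -2.01 and 1.61 for Hoxd4. The differences between H3R2C and H3R26C were not tested, both use the same H3WT libraries, and the genes share peaks. On the unscaled signal the higher H3R26C level was not seen in replicate 3.

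The H3R17C replicate 1 list, left out of every comparison, had no peak inside the cluster. It had 1 peak within 100 kb, of 2.95 kb over the start of Lnpk, chr2:74577401-74580350, with a total signal of 8300 and a maximum of 7. No usable H3K27me3 library had a peak within 1 kb of that start.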

How the results depend on the processing

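The lower cover in H3R2C kept its direction under every alternative run. With the upper 50% of each list's peaks the difference in cover of the cluster was -45.9 points and the difference in mean scaled level -2.13. Without 1 library at a time the level difference ranged from -2.87 to -2.66. Between 5 and 7 Hoxd genes were lower under all settings. On the unscaled level the differences from H3WT were -5.41 (H3R2C), 0.541 (H3R8C), -2.86 (H3R17C) and 0.312 (H3R26C), and on the maximum signal they were -0.674, 0.0231, 0.0411 and 0.480 in the same order, so the small H3R17C difference of -0.211 reversed. The number of Hoxd starts marked in both H3R2C libraries, 3, was 7 with a window of 2.5 kb, and without 1 H3R2C library it was 3 to 6, the 6 being without replicate 3.

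The counts for H3R8C and H3R26C were small and unstable. Hoxd genes lower in H3R8C numbered 1 with 1 kb added on each side of the gene, 1 with peaks within 1 kb joined, and 0 to 2 without 1 library. Hoxd genes higher in H3R8C numbered 0 with joined peaks and 0 with the upper 50% of peaks. Hoxd genes higher in H3R26C numbered 0 to 2 without 1 library. Without 1 library the level difference ranged from 1.09 to 3.10 for H3R26C and from -0.173 to 0.219 for H3R8C. With H3R17C replicate 1 added, its marked starts went from 8 to 0, its cover difference from -1.63 to -45.0 points and its level difference to -6.54. That list has no peak in the cluster, and the genes used for scaling, those with a peak in every list, then change too.

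The 2 libraries in a group limit every statement on spread, and H3R17C has 1. The alternatives planned for HA were not run, because no HA peak lay at a Hoxd gene. No paired analysis was possible because the values at the Hoxd genes come from no test and the planned HA fit was not run. Read by label number alone, the difference in cover of the cluster was -33.3 and -37.6 points in H3R2C, -5.95 and 3.62 in H3R8C, and 4.48 and 6.21 in H3R26C.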

Other observations

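Several non-coding genes of the cluster were covered unevenly. Hoxd3os1, an antisense gene that runs from Hoxd8 to the Hoxd3 start, was covered to 87.0% and 67.1% in H3WT, 23.9% and 13.2% in H3R2C, 88.9% and 93.4% in H3R8C, 82.3% in H3R17C, and 86.4% and 84.6% in H3R26C. Gm28309, a transcript over Hoxd11 and Hoxd10, was covered to 97.6% and 81.9% in H3R2C and to between 89.7% and 100% elsewhere. Gm14426, a short transcript inside Haglr, had no peak in any of the 9 libraries. These genes were chosen after their values were seen.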
